A study of Homo sapiens with 16 samples.

Results

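The genes of the cell cycle and of DNA replication were examined in peak lists of chromatin immunoprecipitation sequencing (ChIP-seq), which maps the DNA that a protein or histone mark is attached to. The 60 genes were taken from a list of gene names, out of 19974 protein-coding genes on chromosomes 1 to 22 and X, and all 60 were found in the RefSeq annotation of GRCh38. A gene was counted in a library when a peak overlapped, by at least 1 bp, the 2 kb on either side of one of its annotated ends. The 8 libraries came from HepG2, a hepatocellular carcinoma line (JARID2, 2 replicates), and THLE-2, a line of normal liver epithelium immortalised with a viral T antigen (JARID2, EZH2 and H3K27me3, 2 replicates each). The labels give no drug, knockdown or edited allele for any group, each group rested on a single cell line, and each immunoprecipitated library had its own input of sheared chromatin. Peak lists hold no expression, so the lines could not be checked by liver markers, and whether a gene was active in these cells was not measured.

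Before a cell divides, the origin recognition complex (ORC), CDC6 and CDT1 load the MCM helicase ring onto DNA. CDC45 and the GINS complex then switch the ring on, the clamp PCNA is loaded by the RFC complex, and DNA polymerases copy the strands. Cyclins and their kinases (CDKs) time these steps, and E2F transcription factors switch many of the genes on. The silencing mark H3K27me3 is written by EZH2, the catalytic part of the Polycomb complex PRC2, and JARID2 helps to bring that complex to DNA. Promoters that are busy in dividing cells are not textbook targets of this complex.

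The 6 promoters below are shown because a JARID2 peak lay over the start of each gene: over RFC1, CDT1, GINS2 and POLE in a library of both lines, over MCM7 in both THLE-2 replicates, and over E2F1 in HepG2. Each line is the 250 bases before the start, 5′ to 3′ on the strand of the gene, from RefSeq (GRCh38.p14). Capitals mark the letters of an E2F site (TTTCCCGC, TTTCGCGC, TTTGCCGC or TTTGGCGC), of a CCAAT box (CCAAT) or of a cell cycle homology region, CHR (TTTGAA), searched on both strands. No CHR letters fell in these 6 windows, and at POLE a CCAAT and its reverse form overlapped. The 6 are examples only. In HepG2 replicate 1, 15 genes had a JARID2 peak within 2 kb of the start, and 7 of the 15 held E2F letters.
RFC1 (chr4:39366363-39366612, minus strand): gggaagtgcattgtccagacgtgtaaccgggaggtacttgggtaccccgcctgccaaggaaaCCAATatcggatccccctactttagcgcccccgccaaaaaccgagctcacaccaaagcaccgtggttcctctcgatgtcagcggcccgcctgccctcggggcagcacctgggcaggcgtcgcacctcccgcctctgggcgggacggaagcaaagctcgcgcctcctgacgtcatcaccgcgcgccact
CDT1 (chr16:88803539-88803788, plus strand): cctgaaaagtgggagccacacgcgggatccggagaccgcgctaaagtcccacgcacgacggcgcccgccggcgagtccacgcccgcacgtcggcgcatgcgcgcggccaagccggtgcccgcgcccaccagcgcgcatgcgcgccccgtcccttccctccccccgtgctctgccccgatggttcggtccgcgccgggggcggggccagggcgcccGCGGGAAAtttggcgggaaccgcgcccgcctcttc
GINS2 (chr16:85688955-85689204, minus strand): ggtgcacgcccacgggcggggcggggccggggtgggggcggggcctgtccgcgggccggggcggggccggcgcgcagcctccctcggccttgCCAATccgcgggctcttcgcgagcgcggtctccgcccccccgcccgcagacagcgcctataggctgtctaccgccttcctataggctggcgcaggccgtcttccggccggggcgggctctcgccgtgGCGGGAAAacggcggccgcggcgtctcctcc
POLE (chr12:132687343-132687592, minus strand): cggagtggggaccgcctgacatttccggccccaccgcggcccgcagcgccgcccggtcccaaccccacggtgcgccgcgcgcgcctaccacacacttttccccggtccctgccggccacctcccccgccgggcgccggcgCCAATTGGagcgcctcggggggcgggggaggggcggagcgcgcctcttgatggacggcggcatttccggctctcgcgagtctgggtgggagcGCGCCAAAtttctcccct
MCM7 (chr7:100101398-100101647, minus strand): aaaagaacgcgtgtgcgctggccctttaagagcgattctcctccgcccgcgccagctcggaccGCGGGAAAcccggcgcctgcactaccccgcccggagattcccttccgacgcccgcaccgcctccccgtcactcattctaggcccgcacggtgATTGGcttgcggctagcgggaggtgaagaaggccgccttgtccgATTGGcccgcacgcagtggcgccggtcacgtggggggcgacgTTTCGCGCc
E2F1 (chr20:33686386-33686635, minus strand): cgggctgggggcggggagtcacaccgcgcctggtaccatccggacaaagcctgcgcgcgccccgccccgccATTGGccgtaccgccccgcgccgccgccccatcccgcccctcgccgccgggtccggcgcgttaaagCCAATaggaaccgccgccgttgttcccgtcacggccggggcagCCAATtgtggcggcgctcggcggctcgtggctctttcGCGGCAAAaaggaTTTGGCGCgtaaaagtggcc

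The libraries were unequal, which bears on every count that follows. HepG2 JARID2 replicate 1 had the fewest filtered tags of the 8 libraries (7945155) and 15738 peaks, whereas replicate 2 had 14627883 tags and 4090 peaks. The protocol names a JARID2 antibody for HepG2 replicate 1 and has only a general sentence on a target antibody for all other samples, so whether the 4 JARID2 libraries shared an antibody is not given in the sources used here. The THLE-2 libraries held 11703738 to 39047005 tags. The false discovery rate (FDR) that MACS gave was at most 2.56% in HepG2 JARID2 replicate 1, had a median of 15.81% and 44.23% in the THLE-2 JARID2 lists, and a median of 100% in the other 5. Of the 39 HOX cluster genes, known Polycomb targets, 25 and 31 had a peak in EZH2 replicates 1 and 2. H3K27me3 replicates 1 and 2 had 0 and 25, so replicate 1 had no called peak at these targets and the 2 lists differed there.

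JARID2 peaks lay at 21 of the 60 genes (35.0%) in HepG2 replicate 1, beside 22.5% of all protein-coding genes. HepG2 replicate 2 had a peak at 1 of them (1.67%, beside 0.716% of all genes). THLE-2 JARID2 had 5 (8.33%, beside 4.21%) and 6 (10.0%, beside 4.38%) in replicates 1 and 2. EZH2 had 1 and 1 (1.67% each, beside 5.92% and 6.54%), and H3K27me3 had 1 (1.67%, beside 7.70%) and 5 (8.33%, beside 19.1%). A JARID2 peak in either THLE-2 replicate stood at 10 genes (16.7%, beside 8.23%), and in any of the 4 JARID2 libraries at 26 (43.3%, beside 28.1%). In all, 29 of the 60 genes had a peak in at least 1 of the 8 libraries (48.3%, beside 43.4%). A peak in at least 2 stood at 8 genes (beside 17.4%), and for 31 genes MACS called none within 2 kb of an end. Over whole gene bodies with 2 kb on each side, the JARID2 share was above that of all genes in 3 libraries and below it in THLE-2 replicate 1: 43.3% (beside 37.5%) and 10.0% (beside 6.92%) in HepG2, and 11.7% (beside 13.9%) and 20.0% (beside 13.6%) in THLE-2. No test was run on these shares, since the genes of a list are not replicates, and a gene without a called peak is not shown to be unbound.

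**Figure D1:**
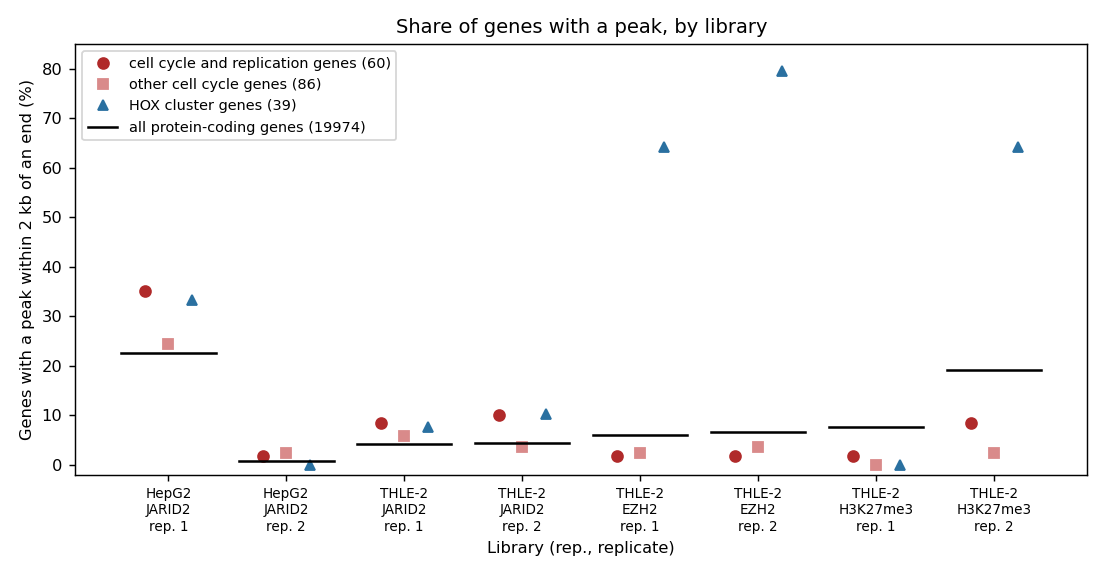
Share of genes with a peak within 2 kb of a gene end (vertical axis, percent) in each of the 8 libraries (horizontal axis), for the 60 cell cycle and replication genes, 86 other cell cycle genes, 39 HOX cluster genes and, as black lines, all 19974 protein-coding genes. The 60 genes sit above the line in the 4 JARID2 libraries (35.0%, 1.67%, 8.33% and 10.0%) and below it in the 4 EZH2 and H3K27me3 libraries, where HOX genes reach 64.1% and 79.5% for EZH2. In the 4 JARID2 libraries HOX genes stand at 33.3%, 0%, 7.69% and 10.3%. The 1.67% of the 60 genes is 1 gene.

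The replicates of JARID2 shared few genes, over all genes as among the 60. Over all genes, 33 had a peak in both HepG2 replicates (of 4503 and 143 genes). In THLE-2, 71 had one in both replicates (of 840 and 875 genes). The 21 genes of HepG2 replicate 1 and the 1 gene of replicate 2, CDK1, did not overlap, so that 0 genes had a peak in both (beside 0.165% of all genes). In THLE-2 only MCM7 had a peak in both replicates (1 of 60, 1.67%, beside 0.355%). EZH2 and H3K27me3 each had CCND2 alone in both replicates (1.67%, beside 4.88% and 6.75%). The mean share of the 60 genes with a JARID2 peak was 18.3% ± 23.6 in HepG2 and 9.17% ± 1.18 in THLE-2 (SD, n = 2 each), a difference of 9.17 percentage points that was smaller than the spread of the HepG2 replicates. The exact permutation test over the 4 libraries, two-sided, gave p = 1.0, and the smallest p it can give is 0.3333. Without HepG2 replicate 1 the difference turned to -7.5 percentage points, and with the 2000 peaks of highest score in each list to -1.67, so the direction between the lines rested on 1 library.

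**Figure D2:**
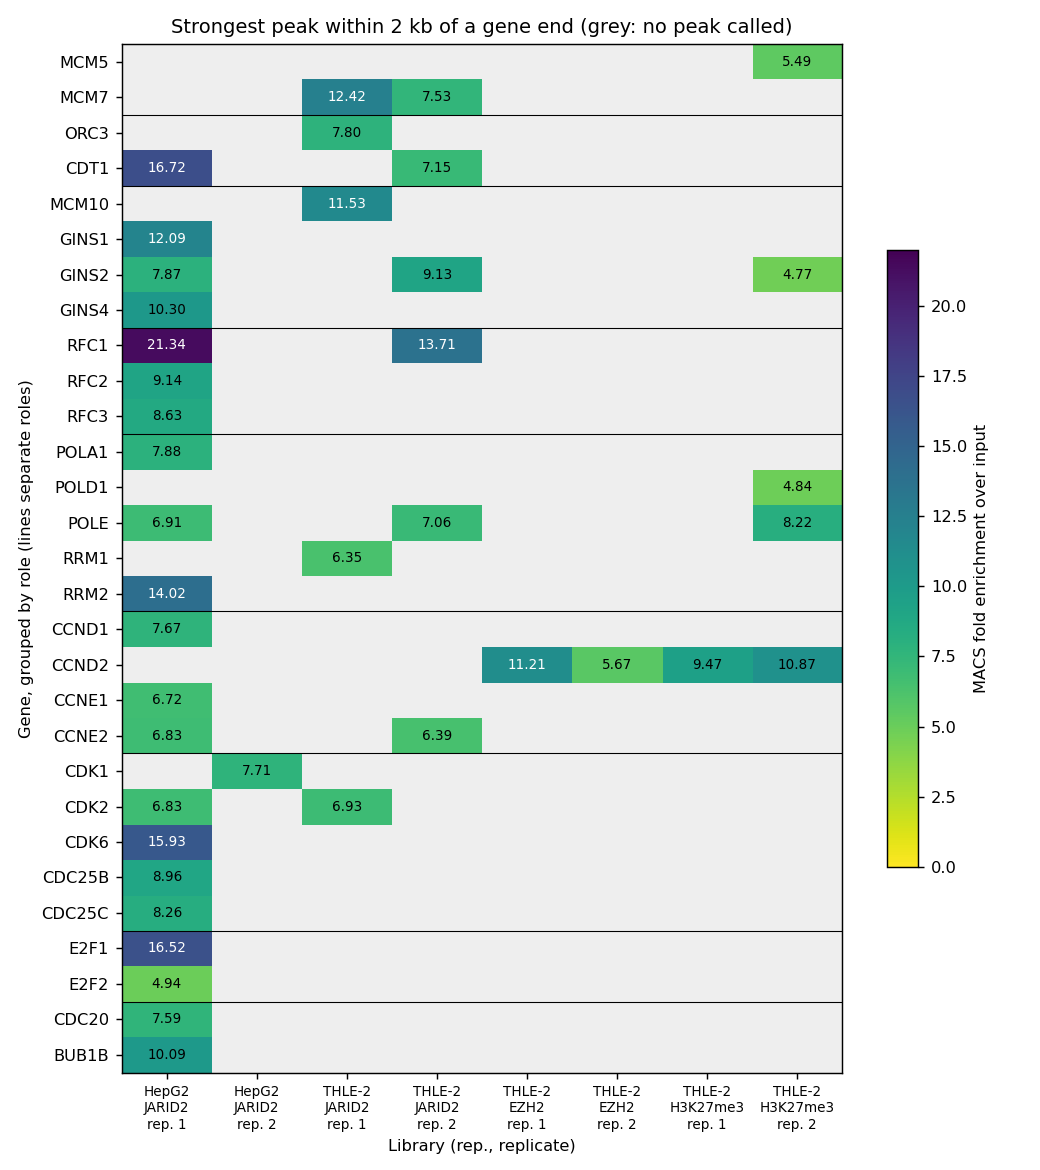
MACS fold enrichment over input (colour and number) of the strongest peak within 2 kb of a gene end, for the 29 genes with a peak (vertical axis, lines separate the roles) in the 8 libraries (horizontal axis); grey means that no peak was called. Most values stand in the first column, HepG2 JARID2 replicate 1, and CCND2 is the only gene with values in the EZH2 columns.

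RFC1, the large subunit of the clamp loader, had the highest fold of these genes in HepG2 JARID2 replicate 1 and, separately, in THLE-2 JARID2 replicate 2. Its peak had a fold enrichment (tags over the local input background, as MACS computed it) of 21.34 in HepG2 replicate 1 from 36 tags, and of 13.71 in THLE-2 replicate 2 from 25 tags. The other 6 libraries had no peak in the window. Within their lists these ranked 75 of 15687 and 14 of 5526 peaks. The peaks spanned 39365883 to 39367394 and 39366111 to 39366753 on chromosome 4, over the start of the gene (39287456 to 39366362, minus strand), and their summits lay 46 and 54 bases before the start, 8 bp apart, both inside the RFC1 sequence shown above. The authors' FDR was 0% and 18.18%.

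Of the other clamp genes, RFC2 (fold 9.14) and RFC3 (8.63) had a peak within 2 kb of an end in HepG2 replicate 1 alone. The RFC2 summit lay 998 bp past the start and that of RFC3 1995 bp before it. PCNA, the clamp itself, and RFC4 and RFC5 had no peak in the window. A peak of THLE-2 JARID2 replicate 2 with a fold of 8.38 lay inside PCNA, 2743 bp from its far end, and so was not counted. The same library had a peak inside RFC3, away from its ends, that was not counted either.

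CDT1, the licensing factor that brings the MCM ring to origins, had JARID2 peaks with an FDR of 0% in both lines. HepG2 replicate 1 had a fold of 16.72 from 49 tags and THLE-2 replicate 2 a fold of 7.15 from 60 tags, and the other libraries had none. Both peaks covered the start on chromosome 16, at 88803285 to 88804488 and 88802923 to 88805388, with summits 154 and 172 bp past the start. The THLE-2 peak was the only one of these genes in that line with an FDR of at most 5%. HepG2 replicate 1 had a second, weaker peak (7.42) 1924 bp beyond the far end of CDT1, in the windows of APRT and GALNS as well.

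Of the 9 genes of origin recognition and licensing, ORC3 was the other one with a peak within 2 kb of an end, in THLE-2 JARID2 replicate 1 (fold 7.80). It lay 1105 bp before the start, in a window shared with RARS2. ORC1, ORC2, ORC4, ORC5, ORC6, CDC6 and GMNN, which encodes the CDT1 inhibitor geminin, had no peak in any library within 2 kb. A HepG2 replicate 1 peak of 7.90 lay inside ORC2, 2087 bp from its start end, just outside the window.

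The MCM ring genes had few peaks, and none within 2 kb of an end in HepG2. MCM7 was the exception in THLE-2: over its start, JARID2 had a fold of 4.85 from 26 tags in replicate 1 and 7.53 from 30 tags in replicate 2. The peaks, at 100100350 to 100101662 and 100100537 to 100101459 on chromosome 7, overlapped by 923 bp, and their summits lay 739 and 350 bp past the start. Both lay in the window of AP4M1, an adaptor protein gene at the same site, so the peaks cannot be assigned to one gene. These 2 values ranked low in their lists (5313 of 5351 and 3851 of 5526), with FDRs of 15.67% and 40.35%.

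A stronger MCM7 peak of THLE-2 JARID2 replicate 1, with a fold of 12.42 from 14 tags, lay at 100093772 to 100094371, 1044 bp inside the far end and in the window of COPS6. This stretch holds mature microRNAs of the miR-106b and miR-93 hairpins, which are embedded in MCM7. They are shown because the peak covers them, with the seed (bases 2 to 8) in capitals; the 5p forms share the seed AAAGUGC.
hsa-miR-106b-5p (chr7:100094043-100094063, minus strand): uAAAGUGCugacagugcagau
hsa-miR-93-5p (chr7:100093815-100093837, minus strand): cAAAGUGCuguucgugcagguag
No other library had a peak there. MCM5 had an H3K27me3 peak in replicate 2 (fold 5.49), 9 bp from its higher-coordinate end. MCM2, MCM3, MCM4 and MCM6 had none in the window.

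Of the 6 genes that activate the helicase, 4 had a JARID2 peak within 2 kb of an end. GINS2 had a fold of 7.87 in HepG2 replicate 1 (44 tags) and 9.13 in THLE-2 replicate 2 (34 tags). These peaks, at 85687631 to 85689409 and 85688336 to 85689836 on chromosome 16, overlapped by 1074 bp across the start, but the summits lay 856 bp past it and 433 bp before it. GINS2 also had an H3K27me3 peak in replicate 2 (fold 4.77), with a summit 883 bp before the start, that overlapped the THLE-2 JARID2 peak by 701 bp. H3K27me3 replicate 1 had no peak there.

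GINS1 (fold 12.09, summit 148 bp past the start) and GINS4 (10.30) had a peak in HepG2 replicate 1 alone. MCM10, which helps start the fork, had a peak in THLE-2 JARID2 replicate 1 alone, with a fold of 11.53 from 19 tags at its start. GINS3 and CDC45 had none within 2 kb of an end, though a THLE-2 JARID2 replicate 1 peak lay inside CDC45.

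**Figure D3:**
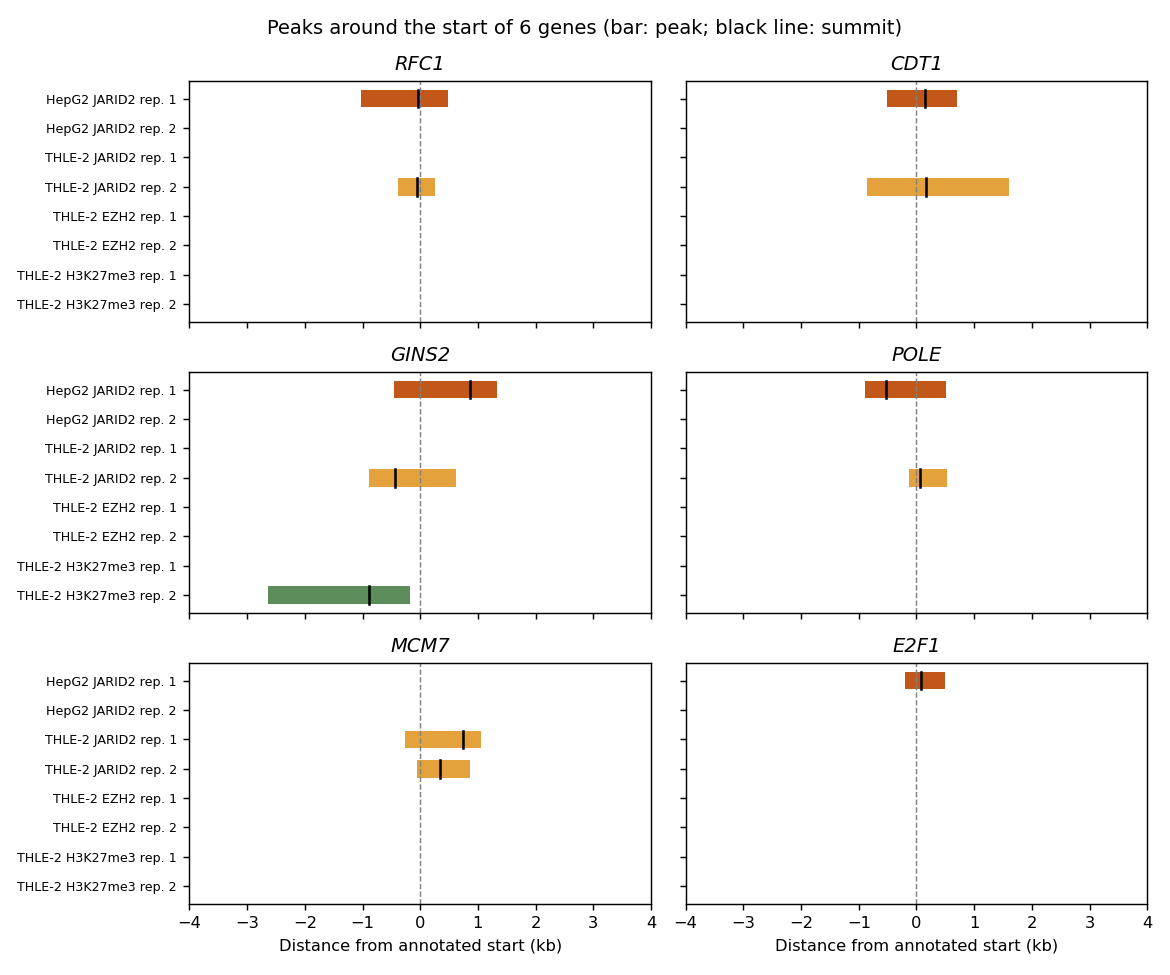
Peaks around the annotated start of 6 genes; the horizontal axis is the distance from the start in kb, positive in the direction of transcription, and each row is a library. Bars are peaks and black lines their summits. At RFC1 the summits of both lines lie 8 bp apart and at CDT1 18 bp apart, whereas at GINS2 they lie 1289 bp apart, and HepG2 replicate 2 and both EZH2 libraries have no peak in any of the 6 panels.

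POLE, the catalytic subunit of the leading-strand polymerase, had a JARID2 peak in both lines, with a fold of 6.91 in HepG2 replicate 1 (54 tags) and of 7.06 in THLE-2 replicate 2 (17 tags). They overlapped by 635 bp over the start on chromosome 12, shared with PXMP2, with summits 524 bp before the start and 63 bp past it. Polycomb signal at POLE lay at the far end, near P2RX2, an ATP-gated channel gene. H3K27me3 replicate 2 had a fold of 8.22 there from 1438 tags, 1340 bp from the end of POLE. The EZH2 peaks of both replicates at that place (11.30 and 7.62) lay 2804 and 2269 bp away and so fell outside the window. HepG2 JARID2 replicate 1 also had a peak inside that stretch, at 132618293 to 132619070 (fold 10.18, 22 tags). It lay 4692 bp from the end of POLE and was not counted.

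RRM2 and RRM1, the subunits of ribonucleotide reductase that make DNA building blocks, had peaks within 2 kb of an end in different lines. Away from the ends, each gene also had a JARID2 peak in the other line. These lay inside RRM2 in THLE-2 replicate 2 and inside RRM1 in HepG2 replicate 1, and were not counted. RRM2 had a fold of 14.02 from 52 tags in HepG2 replicate 1, with the summit 211 bp before the start. RRM1 had 6.35 in THLE-2 JARID2 replicate 1, in a window shared with STIM1. POLA1, of the polymerase that lays down primers, had 7.88 in HepG2 replicate 1. POLD1, of the lagging-strand polymerase, had an H3K27me3 peak in replicate 2 (4.84) over its far end, shared with SPIB, a factor of blood cells. PRIM1 had no peak.

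CCND2, cyclin D2, was the one gene of the 60 with EZH2. EZH2 covered its lower-coordinate end on chromosome 12 in replicates 1 and 2, from 4267986 to 4277289 in replicate 1 (fold 11.21, 1552 tags) and from 4268147 to 4278100 in replicate 2 (fold 5.67, 1675 tags). These peaks were 9304 and 9954 bp long, beside medians of 3832 and 3585 bp for the strongest EZH2 peaks of all genes with one. They overlapped by 9143 bp, and their summits lay outside the gene, at -3877 and -3871 bp from that end, so that a peak summit inside the 2 kb window was found at 0 of the 60 genes for EZH2. Every EZH2 peak here carried an FDR of 100%.

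H3K27me3 lay over most of CCND2 in THLE-2. Replicate 1 covered 53.5% of the 31592-bp gene and replicate 2 83.1%, and 1 peak of replicate 2, of 23157 bp, ran from outside the gene into it at 4268141 to 4291297 (fold 10.87). Replicate 2 overlapped the EZH2 peaks by 9149 and 9954 bp. In replicate 1 the nearest H3K27me3 peak began at 4277628, past the end of the EZH2 replicate 1 peak though not of the replicate 2 peak, and the peak that counted for the window lay at the opposite end of the gene (fold 9.47). In HepG2, JARID2 replicate 1 had 2 peaks inside CCND2, at 4285587 to 4286104 (fold 9.48) and 4289398 to 4290064 (fold 8.18), both far from its ends and so not counted. A further peak (fold 10.67, 4271146 to 4271644) lay 2118 bp from the lower-coordinate end, just outside the window, inside the stretch that EZH2 covered in THLE-2. EZH2 and H3K27me3 were not measured in HepG2 here.

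**Figure D4:**
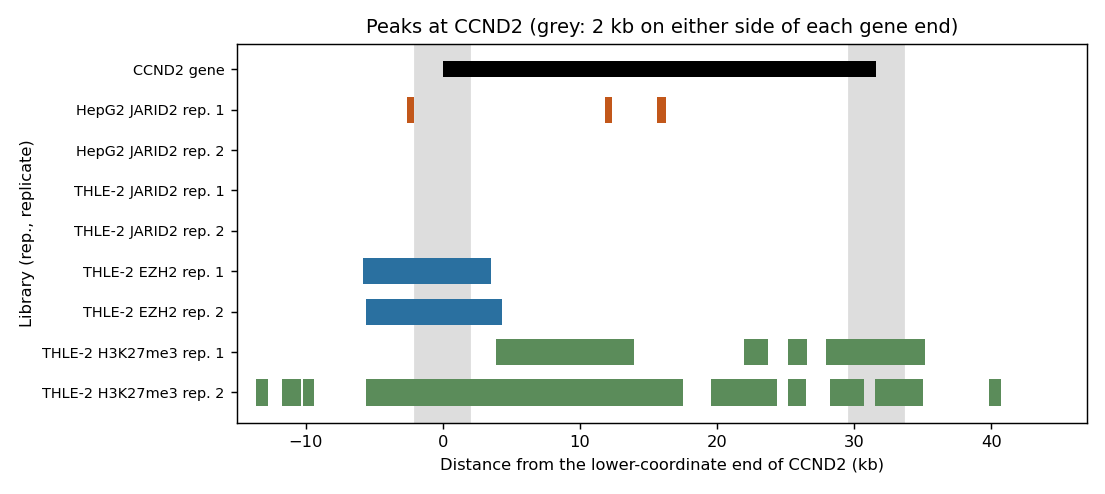
Peaks of the 8 libraries at CCND2; the horizontal axis is the distance in kb from the lower-coordinate end of the gene, the black bar is the gene, grey bands are the 2 kb windows, and coloured bars are peaks. The EZH2 peaks of both replicates span the lower end, and H3K27me3 covers 53.5% and 83.1% of the gene in replicates 1 and 2.

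The other D-type cyclins, which act in G1 phase, differed from CCND2. CCND1 had 2 peaks in HepG2 JARID2 replicate 1, with folds of 7.67 over its higher-coordinate end and 4.10 at 1087 bp from the lower one, and no peak in THLE-2. CCND3 had none within 2 kb of an end. Of the E-type cyclins, which drive entry into S phase, CCNE1 had 6.72 in HepG2 replicate 1, with its summit 145 bp past the start. CCNE2 had 6.83 (37 tags) there and 6.39 (22 tags) in THLE-2 JARID2 replicate 2, with peaks that overlapped by 1132 bp in a window shared with NDUFAF6. CCNA2, CCNB1 and CCNB2, the cyclins of G2 and mitosis, had no peak.

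Of the kinases and their CDC25 phosphatases, CDK6, the partner of D-type cyclins, had the highest fold, 15.93 from 16 tags in HepG2 replicate 1, with its summit 142 bp before the start. CDK2, the partner of cyclin E, had a fold of 6.83 in HepG2 replicate 1 and 6.93 in THLE-2 JARID2 replicate 1, but at opposite ends of the gene, in windows shared with RAB5B and PMEL. CDK1, the mitotic kinase, held the only peak of HepG2 replicate 2 within 2 kb of an end of the 60 genes (7.71, 17 tags, FDR 100%). That peak lay 650 bp beyond the far end of CDK1. CDC25B (8.96, shared with CENPB) and CDC25C (8.26, at the far end) had a peak in HepG2 replicate 1. CDK4 and CDC25A had none in the window.

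E2F1 and E2F2, activators of S-phase genes, had JARID2 peaks in HepG2 replicate 1 alone. E2F1 had a fold of 16.52 from 21 tags, at 33685896 to 33686591 on chromosome 20, with its summit 80 bp past the start, and E2F2 had 4.94 with its summit 651 bp past the start. E2F3 had none. Among the 9 mitotic genes, CDC20, the activator of the anaphase-promoting complex (7.59, summit 129 bp past the start), and BUB1B, of the spindle checkpoint (10.09, at the far end), had a peak in HepG2 replicate 1. PLK1, AURKA, AURKB, BUB1, MAD2L1, TOP2A and MKI67, the proliferation marker Ki-67, had none in any library within 2 kb.

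Fold at these genes was close to that of other genes in the same list. The median fold of the strongest peak per gene was 8.63 over the 21 genes of HepG2 replicate 1, beside 8.93 over all 4503 genes with a peak there. In THLE-2 JARID2 it was 7.80 over 5 genes (8.07 over 840) and 7.34 over 6 genes (7.79 over 875). In HepG2 replicate 1 the range ran from 4.94 at E2F2 to 21.34 at RFC1, and RFC1, CDT1, E2F1, CDK6 and RRM2 lay above 14.

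JARID2 in HepG2 replicate 1 lay mostly at the starts, among these genes as over all genes. Strand was at hand for 52 of the 60 genes; CCND1, CCND2, CDK2, AURKA, MCM5, GINS4, MCM4 and CCNE2 were without it. A peak lay within 2 kb of the start end at 15 of the 52 (28.8%, beside 18.8% of all 15812 genes with strand). Of the 17 with strand and a peak at either end, these were 88.2%, beside 83.7% of the 3551 such genes of the whole annotation. Of the 23 peaks at the 60 genes, 10 had the summit within 250 bp of the start, a count that was not made over all genes. HepG2 replicate 2 had 0 at the start (beside 0.354%), and THLE-2 JARID2 had 4 (7.69%, beside 2.95%) and 5 (9.62%, beside 3.32%) of the 52 in replicates 1 and 2. EZH2, with CCND2 not among the 52, had 0 in both replicates (beside 4.84% and 5.26%). H3K27me3 had 0 in replicate 1 (beside 4.28%) and GINS2 alone in replicate 2 (1.92%, beside 14.2%).

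Most genes found in THLE-2 JARID2 replicate 2 were also found in HepG2 replicate 1. Of its 6 genes, 5 (RFC1, CDT1, GINS2, POLE and CCNE2) also had a peak in HepG2 replicate 1, and at all 5 the peaks overlapped; these were 83.3% of the THLE-2 genes and 23.8% of the 21 HepG2 genes. Over all genes, overlapping peaks stood at 244, or 27.9% of the 875 THLE-2 genes and 5.42% of the 4503 HepG2 genes. In THLE-2 JARID2 replicate 1, of the 5 genes (MCM7, MCM10, ORC3, CDK2 and RRM1), 1 had a peak in HepG2 replicate 1 and 0 had an overlapping one, beside 174 of 840 over all genes (20.7%). With so few genes these shares are a description without a test.

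The 52 promoters with a sequence at hand were searched for motifs of cell cycle genes and for the SP1 letters GGGCGG. The E2F letters given above stood in the 250 bases before the start at 14 of 52 (26.9%), beside 3.73% of 15812 promoters of the same length. CCAAT stood in 34 of 52 (65.4%, beside 34.4%) and the CHR letters in 9 (17.3%, beside 10.8%). Of the 15 promoters with a HepG2 JARID2 replicate 1 peak within 2 kb of the start, 7 held E2F letters (46.7%) and 1 held CHR letters (6.67%), against 7 (18.9%) and 8 (21.6%) of the 37 without. CCAAT stood in 8 (53.3%) and 26 (70.3%), and the SP1 letters in 12 (80.0%) and 28 (75.7%). The same split over all genes gave E2F letters in 4.5% with a peak and 3.54% without, CCAAT in 31.0% and 35.2%, and CHR letters in 5.99% and 11.9%.

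G+C content was higher in the promoters with a peak in HepG2 JARID2 replicate 1, the only library used for this split. Its median was 72.4% in the 15 promoters with a peak and 61.2% in the 37 without, and over all genes it was 69.6% in the 3003 with a peak and 60.8% in the 12809 without. For these promoter splits the start was that of the promoter table, whereas the share of 18.8% above used the gene end on the start side (2972 genes). The part of base composition in the motif shares was not tested. Among those with a peak, RFC3 had 50.8% and CDC25B had 83.2%. Among the 37 without, MCM7, MCM10, ORC3 and RRM1 had a THLE-2 JARID2 replicate 1 peak at the start. Their G+C was 68.8%, 59.6%, 68.4% and 56.4%. RFC1, with the highest fold in HepG2 JARID2 replicate 1, held a CCAAT box and no E2F letters. A match or its lack describes these letters only.

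**Figure D5:**
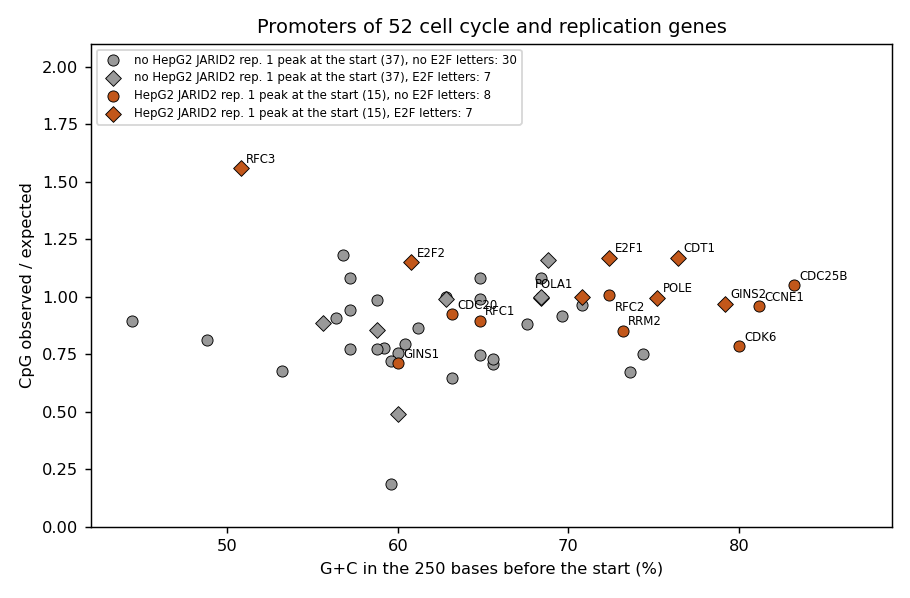
G+C content of the 250 bases before the start (horizontal axis, percent) against the ratio of observed to expected CpG (vertical axis) for the 52 promoters; each point is a gene, orange with a HepG2 JARID2 replicate 1 peak within 2 kb of the start and grey without, diamonds hold E2F letters. The 15 orange points have a median of 72.4% and the 37 grey ones of 61.2%.

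A further 86 genes of the cell cycle, outside the 60, were counted in the same way. JARID2 peaks stood at 21 (24.4%) in HepG2 replicate 1, 2 (2.33%) in replicate 2, and 5 (5.81%) and 3 (3.49%) in THLE-2, beside the same backgrounds as above. EZH2 had 2 and 3, and H3K27me3 0 and 2. E2F6, a repressive E2F, had JARID2 folds of 15.65 in HepG2 replicate 1 and 11.09 in THLE-2 replicate 1 at its start. CDKN1B, the CDK inhibitor p27, had 6.74 in HepG2 replicate 1 and 11.62 in THLE-2 replicate 2 at its far end, in the window of APOLD1.

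EZH2 peaks among these 86 genes stood at CDKN1C and BUB3 in both replicates and CENPF in replicate 2. CDKN1C, the imprinted CDK inhibitor p57, had small peaks of 12.78 and 11.33 from 26 and 23 tags, and an H3K27me3 peak of 9.78 in replicate 2. BUB3, a spindle checkpoint gene, lay 1816 and 1823 bp from EZH2 domains that also covered the windows of HMX2 and HMX3, homeobox genes, with folds of 10.67 and 10.87. RB1, the retinoblastoma gene that restrains E2F, had a JARID2 peak of 5.04 in THLE-2 replicate 1. CENPF and BIRC5 each had a HepG2 JARID2 replicate 1 peak (12.80 and 6.71). BIRC5 also had an H3K27me3 peak of 6.52 in THLE-2 replicate 2, in the window of TMEM235. CDKN2A and CDKN1A had no peak in the window in any library.

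Several genes stood close to the 2 kb limit. Just inside were the far-end peak of CDT1 (1924 bp), RFC3 (1728 bp) and GINS4 (1568 bp), all in HepG2 JARID2 replicate 1. Just outside, with no peak closer in that library, were ORC2 (2087 bp) and CCND2 (2118 bp) in the same library, TOP2A (2249 bp, fold 14.74) in HepG2 JARID2 replicate 2, BUB1 (2233 bp) in H3K27me3 replicate 2 and POLE (2269 bp) in EZH2 replicate 2.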

How the data were processed

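The 16 samples are 8 immunoprecipitated libraries and their 8 inputs, grouped by title. Per the submitters' processing notes, cutadapt, Bowtie2, MACS 1.4.2 and GRCh38 were used. Per the file headers, the authors called peaks per library, with the matching input as control and uniquely mapped reads only (p cutoff 1e-05, 1 tag per position, larger library scaled down) and did not pool replicates. The deposited lists give a tag count per peak, a score (-10 times log10 p), the fold enrichment (a ratio), and the FDR in percent. Fold depends on local input and depth, so it ranks peaks within a list only. Input libraries entered through these calls alone.

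Here, peaks were joined to RefSeq gene ends (GRCh38.p14 table) with pandas 2.3.3 in Python 3.11.15, a search checked on simulated peaks. Strand and promoters came from the RefSeq promoter table. The line comparison used an exact permutation test (scipy 1.17.1). No test was run over genes. Named genes were those with a peak in at least 2 libraries or in THLE-2, the 15 highest folds of HepG2 JARID2 replicate 1, genes within 500 bp of the window limit, other cell cycle genes with a peak in at least 2 libraries, and CDKN2A, CDKN1A and RB1; 1 further gene is not reported here. The remaining genes of the 60, CDC20, CCNE1, E2F2 and CDK1 and those without a peak, are named in addition. Genes and lists were chosen with earlier results of these data known. The series describes the replicates as biological.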

Additional observations from a re-analysis of the deposited data

How the results depend on the processing

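The counts of the 60 genes depended most on the peak threshold. With FDR at most 5%, HepG2 JARID2 replicate 1 stayed at 21 genes (35.0%, beside 22.5% of all genes). THLE-2 JARID2 replicate 2 had 1 (1.67%, beside 0.0501%). The other 6 libraries and the both-replicate counts of THLE-2 JARID2, EZH2 and H3K27me3 had 0. Shares of all genes under these settings were taken per library, not for both replicates. With a score of at least 100, HepG2 JARID2 replicate 1 had 7 genes (11.7%, beside 6.0%) and replicate 2 had 0. THLE-2 JARID2 had 0 and 3 (5.0%, beside 0.275%) in replicates 1 and 2, and 0 in both replicates. With the 2000 peaks of highest score, HepG2 JARID2 had 7 (11.7%, beside 7.3%) and 0 in replicates 1 and 2. H3K27me3 replicate 2 then had 1 (1.67%, beside 3.46%) and both H3K27me3 replicates 0. The JARID2 difference between lines turned to -1.67 percentage points with these 2000 peaks. With a 5 kb window, HepG2 JARID2 replicate 2 had 4 genes (6.67%, beside 1.58%) and both replicates 2. In that window EZH2 had 2 (3.33%, beside 6.65%) and 3 (5.0%, beside 7.63%) and both replicates 2. H3K27me3 replicate 2 had 8 there (13.3%, beside 25.5%). With the annotated start only (52 genes with strand, CCND2 not among them), HepG2 JARID2 replicate 2 had 0. EZH2 then had 0 and 0 (beside 3.83% and 4.2%) and both replicates 0. H3K27me3 had 0 (beside 3.4%) and 1 (1.67%, beside 11.2%) and both replicates 0. Shares with the start only are of all 60 and all 19974 genes, so that genes without strand count as without a peak. Over gene bodies with 2 kb, HepG2 JARID2 replicate 2 had 6 and both replicates 3, and THLE-2 JARID2 replicate 2 had 12. With the summit inside the window, EZH2 had 0 and 0 (beside 5.13% and 5.71%) and both replicates 0. Of all genes, 6.92% had a peak over the body with 2 kb in HepG2 JARID2 replicate 2 and 13.6% in THLE-2 JARID2 replicate 2. In THLE-2 JARID2 replicate 1 the body share of the 60 genes (11.7%) was below that of all genes (13.9%). HepG2 JARID2 replicate 2 was below all genes with the start only (0% beside 0.255%), a score of at least 100 (0% beside 0.02%) and 2000 peaks (0% beside 0.365%), and THLE-2 JARID2 replicate 1 with FDR at most 5% (0% beside 0.015%) and a score of at least 100 (0% beside 0.155%). H3K27me3 replicate 1 was above all genes with 2000 peaks (1.67% beside 0.901%). Under the other settings of window and threshold, wherever any gene kept a peak, the 60 genes stayed on the same side of all genes. A 1 kb window kept every count within 1.5 times. Leaving out 1 replicate gave 1 to 21 genes for HepG2 JARID2, 5 to 6 for THLE-2 JARID2, 1 to 1 for EZH2 and 1 to 5 for H3K27me3. The JARID2 difference between lines ranged from -7.5 (without HepG2 replicate 1) to 25.8 percentage points (without HepG2 replicate 2). The fewer peaks kept by the stricter settings lower the counts by construction. No paired analysis was possible because the counts come from no test and the replicate numbers tie no HepG2 culture to a THLE-2 culture. The peak lists hold called peaks only, so signal under the p cutoff was not seen.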
